A study of Mus musculus with 8 samples.

Results

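The 7 genes described here encode parts of the signaling route that runs from gp130 receptors through STAT3. They are Il6st, Lifr, Cntfr and Osmr among the receptor chains, the transcription factor Stat3, and Socs3 and Bcl3. They were followed, 7 of 16999 genes counted in both genotypes, in each oligodendrocyte cluster of the authors' annotation, in the microglia clusters of Rag1-/- libraries and in astrocytes, which were taken as cells with at least 3 unique molecular identifiers (UMIs) over Gja1, Aqp4 and Ntsr2. The genes were chosen because Socs3 and Bcl3 were known to be high in one oligodendrocyte cluster of wild-type white matter, so the levels by cluster and the wild-type difference between tissues are given as a description, without a test. The tests concern Rag1-/- libraries and other cell types. Where Rag1-/- is tested against wild-type white matter, the wild-type libraries of that choice form one arm, and a lower Rag1-/- level of Socs3 or Bcl3 is favored by the choice itself.

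Single-cell RNA-sequencing had been done on the 10× platform with male mice aged 24 months, dissociated with an inhibitor of transcription and sorted for live cells. The 8 libraries comprised 2 of gray matter and 2 of white matter from wild-type mice labeled C57BL/6, and 1 of gray matter and 3 of white matter from Rag1-/- mice, which lack mature T and B cells. The labels give the Rag1-/- strain as NOD.129S7(B6)-Rag-1tm1Mom/J, whereas the study's methods name the same allele on a C57BL/6J background, and the data used here do not settle which is right. Gray matter was frontal cortex, and white matter was a mixture of optic tract, medial lemniscus and corpus callosum. Most libraries held cells of pooled mice, and the gray and white matter of both wild-type pools and of Rag1-/- pool 1 came from the same animals. The labels also number batches within each genotype. Wild-type batches 1 and 2 each gave both tissues, Rag1-/- batch 1 gave the gray matter library and white matter library 1, and Rag1-/- batch 2 gave white matter libraries 2 and 3. Among Rag1-/- libraries, only the pair of batch 1 thus compares tissues within a batch. No young mice were among these libraries, so age was not compared. Genotype coincides with the experiment, the gene list and, if the labels are right, the strain, which cannot be told apart from it. The version of the read-processing software also differed between genotypes and, per the study's methods, between the Rag1-/- batches.

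The tables held 29631 cells, 15604 oligodendrocytes, 7421 Rag1-/- microglia and 1656 astrocytes, with 4554278 to 57127865 UMIs per library. Cells that carried T cell markers made up 5.57% and 6.00% of the wild-type white matter libraries and 0.105% to 0.681% of the Rag1-/- libraries, in which Cd3e was found in 0, 19, 0 and 0 of them. The Rag1 tag itself was at 0 to 0.424 counts per 1000000 counts of the library (CPM) in wild-type and 1.46 to 2.25 CPM in Rag1-/- libraries. It comes from the 3' end of the transcript, outside the disrupted part, and does not check the deletion. Of all cell barcodes, 92 occurred in more than 1 library, with at most 15 in any of the 28 pairs of libraries. The oligodendrocytes carried their defining markers (Mbp, Mog, Mag, Mobp and Cldn11) at 10317 to 16393 summed CPM in every library, against microglia markers at 58.8 to 573, astrocyte markers at 1.94 to 27.4, T cell markers at 0.0248 to 6.87 and endothelial markers at 0.0456 to 1.34 summed CPM. The microglia markers were highest in wild-type gray matter library 1 and lowest in wild-type white matter library 2.

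In this pathway a cytokine of the interleukin-6 family, such as leukemia inhibitory factor, ciliary neurotrophic factor or oncostatin M, brings its specific receptor chain together with the shared chain gp130. The receptor-bound Janus kinases then phosphorylate STAT3, which enters the nucleus and induces its target genes. SOCS3 is one of these targets and blocks the kinases at gp130, so its transcript is commonly read as a trace of recent STAT3 activity. BCL3 is an atypical nuclear IkB protein that modulates NF-kB subunits bound to DNA, and its gene also responds to cytokines. In the brain this pathway is best known from reactive astrocytes and from the support of oligodendrocyte survival by leukemia inhibitory factor and ciliary neurotrophic factor.

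In the mouse genome (GRCm38, the build behind mm10), Socs3 lies on chromosome 11 at 117966079 to 117970047 and Stat3 on the same chromosome at 100885098 to 100939540. Bcl3 lies on chromosome 7 at 19808462 to 19822770. The promoters of the pair that led the pattern are shown for the presence of a STAT site. Both windows run from 250 bases before to 50 bases after the RefSeq start site (GRCm38.p6, minus strand, chr11:117969317-117969616 for Socs3 and chr7:19822706-19823005 for Bcl3), and the capitals mark the single match to TTCNNNGAA, a palindromic STAT motif that reads the same on both strands.
Socs3: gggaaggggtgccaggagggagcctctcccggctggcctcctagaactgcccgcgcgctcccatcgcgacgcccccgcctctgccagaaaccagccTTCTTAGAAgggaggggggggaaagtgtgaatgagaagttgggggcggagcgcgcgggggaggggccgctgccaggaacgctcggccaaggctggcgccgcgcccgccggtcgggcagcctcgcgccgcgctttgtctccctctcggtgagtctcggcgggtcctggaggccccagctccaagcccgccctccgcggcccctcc
Bcl3: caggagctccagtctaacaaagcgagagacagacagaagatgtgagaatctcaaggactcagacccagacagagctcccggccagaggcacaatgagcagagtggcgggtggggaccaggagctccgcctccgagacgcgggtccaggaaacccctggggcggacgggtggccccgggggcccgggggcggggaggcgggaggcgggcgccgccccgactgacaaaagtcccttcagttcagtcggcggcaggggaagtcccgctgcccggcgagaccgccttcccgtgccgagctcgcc
The match in the Socs3 window, TTCTTAGAA, began 154 bases before the start site. The 13 windows listed for the 7 genes held no other match, and 8.30% of the 32851 windows in RefSeq held at least 1. A match is only a description of the letters in these windows.

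Among the receptor chains, Il6st, which encodes gp130, was found in oligodendrocytes of both tissues. It measured 65.8 and 58.4 CPM in wild-type gray matter, 58.8 and 56.4 CPM in wild-type white matter, 47.4 CPM in Rag1-/- gray matter, and 45.5, 52.5 and 50.2 CPM in Rag1-/- white matter. The tissues overlapped within both genotypes, except that after TMM scaling, which corrects for differences in library composition, the wild-type libraries just parted, at 57.97 CPM or more in gray and 57.8 CPM or less in white matter. Lifr, the chain that binds leukemia inhibitory factor, measured 94.7 and 88.9 CPM in wild-type gray and 68.4 and 86.6 CPM in wild-type white matter, against 83.9 CPM in Rag1-/- gray and 77.6, 83.3 and 71.6 CPM in Rag1-/- white matter. In wild-type mice both white matter libraries lay below gray matter, as did 18.0% of all genes tested. In Rag1-/- mice libraries 1 and 3 lay below it, while library 2 was slightly below in CPM and slightly above after TMM scaling, at 85.5 against 85.0 CPM, and 28.9% of all genes had all 3 white matter libraries below. Cntfr, the chain that binds ciliary neurotrophic factor, measured 38.4 and 27.4 CPM in wild-type gray and 52.8 and 45.3 CPM in wild-type white matter, against 22.9 CPM in Rag1-/- gray and 30.9, 37.0 and 32.1 CPM in Rag1-/- white matter. Its white matter libraries were above gray matter in both genotypes, a property shared by 20.5% of all genes in wild-type and 32.8% in Rag1-/- oligodendrocytes. Osmr, the oncostatin M receptor chain, was close to absent, with 21 UMIs over all white matter oligodendrocytes and 0 in gray matter.

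Stat3 was higher in white matter oligodendrocytes. In wild-type mice it measured 49.7 and 49.4 CPM in gray and 116 and 130 CPM in white matter, where the values were 2.33 and 2.64 times those of gray matter from the same pool. In Rag1-/- mice it measured 37.9 CPM in gray and 83.7, 75.1 and 89.9 CPM in white matter. All 5 white matter libraries lay above all 3 of gray matter, as they did for 7.36% of all genes, and the Rag1-/- white matter libraries lay below those of the wild type, as they did for 12.7% of all genes.

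Socs3 was almost restricted to white matter. In wild-type gray matter 1 and 3 UMIs were counted, that is 0.366 and 0.240 CPM, and in wild-type white matter 113 and 1207 UMIs, or 18.9 and 27.5 CPM. In Rag1-/- gray matter no Socs3 UMI was found among 9556478 UMIs of 1055 oligodendrocytes, which allows up to 0.314 CPM and a share of up to 0.284% of cells with a UMI (3 counts, counting error only). In Rag1-/- white matter there were 280, 195 and 981 UMIs, or 10.2, 9.14 and 24.3 CPM. Set against that floor, Socs3 was at least 32.3-fold, 29.1-fold and 77.4-fold higher in Rag1-/- white matter libraries 1, 2 and 3. Libraries 1 and 2 lay below both wild-type white matter libraries, and library 3 lay between them.

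Bcl3 had the same tissue distribution. It measured 2.19 and 1.04 CPM in wild-type gray and 17.8 and 24.2 CPM in wild-type white matter, and 0.942 CPM in Rag1-/- gray against 8.85, 8.86 and 14.99 CPM in Rag1-/- white matter. White matter was 8.10 and 23.3 times gray matter in the wild-type pools and 9.40 times in the Rag1-/- pool that gave both tissues. All 3 Rag1-/- white matter libraries lay below both wild-type white matter libraries and all 5 lay above gray matter, beside 12.7% and 7.36% of all genes.

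**Figure D1:**
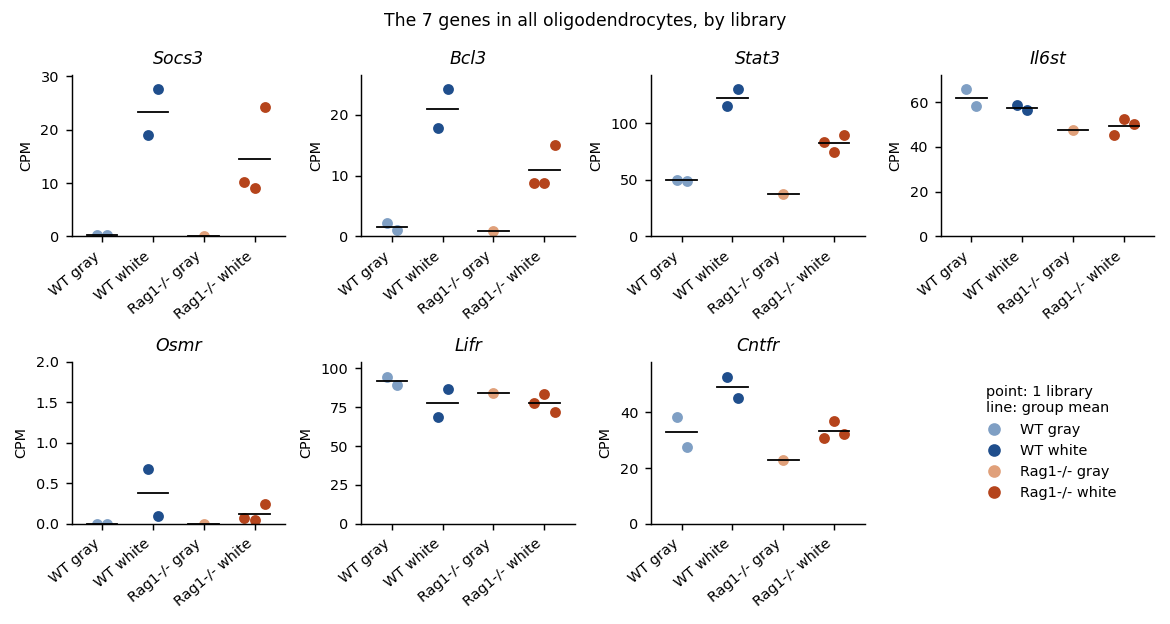
Level of the 7 genes over all oligodendrocytes, in CPM of summed UMIs (y axis, linear, different range per panel), with 1 point per library and a line at the mean of each tissue and genotype. Socs3, Bcl3 and Stat3 are higher in white than in gray matter libraries of both genotypes, while Il6st stays between 45.5 and 65.8 CPM in all 8.

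Stat3 and Bcl3 were called higher in white than in gray matter oligodendrocytes of Rag1-/- mice. In edgeR's quasi-likelihood test with Benjamini-Hochberg adjustment over 13067 genes, Stat3 rose by 1.14 ± 0.16 on the log2 scale (SE, adjusted p = 0.0258) and Bcl3 rose by 3.55 ± 0.57 (SE, adjusted p = 0.0391), while 0.291% of all genes were called higher and 0.145% lower. Socs3 was also called (edgeR adjusted p = 0.0444), but with 1, 3 and 0 UMIs in the gray matter libraries it passed the filter on low counts only through white matter, where it is high, so its call adds nothing to the levels given above. Cntfr, at 0.55 ± 0.20 (SE, edgeR adjusted p = 0.409), Il6st, at 0.07 ± 0.15 (SE, edgeR adjusted p = 0.896), and Lifr, at -0.10 ± 0.16 (SE, edgeR adjusted p = 0.862), were not called, nor was Osmr (edgeR adjusted p = 0.763), which was at 0 in gray matter. The lone Rag1-/- gray matter library was assumed to vary like the other groups. With the mouse pool as a block, 688 genes were called in place of 57, and Stat3 and Bcl3 remained called. That fit rests on little, since pool 1 is the only Rag1-/- pool with both tissues and the 1 residual degree of freedom comes from the wild-type pools. Its log2 fold changes were 1.13 for Stat3 and 3.21 for Bcl3, and the plain ratio of white to gray matter in that pool, which is also the only Rag1-/- pair within a batch, was 2.21 for Stat3 and 9.40 for Bcl3.

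These calls were close to the threshold and rested on several libraries. Without wild-type gray matter library 1 the edgeR adjusted p was 0.0621 for Bcl3 and 0.0507 for Stat3. Without wild-type gray matter library 2 the values were 0.0672 and 0.0585 in edgeR, and without Rag1-/- white matter library 2 they were 0.0584 and 0.0547. Without Rag1-/- white matter library 3 only the Stat3 call was lost, at an edgeR adjusted p of 0.0716. The log2 fold changes of Stat3 and Bcl3 were 1.04 to 1.18 for Stat3 and 3.198 to 3.64 for Bcl3 in these fits. The oligodendrocyte cluster for which Bcl3 was chosen, described below, held 0 cells of the Rag1-/- gray matter library. In these sums the Bcl3 call thus cannot be told apart from the presence of that cluster. Without its cells Stat3 remained called and Bcl3 did not (edgeR adjusted p = 0.162).

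The genotypes were compared within white matter to see whether the level differed without mature T and B cells. For all white matter oligodendrocytes, none of the 7 genes was called between Rag1-/- and wild type, while 0.704% of all genes were called higher and 0.207% lower. All 3 Rag1-/- libraries lay below both wild-type libraries for Stat3, Bcl3, Cntfr and Il6st, as they did for 12.7% of all genes. Stat3 had the smallest p, with a log2 difference of -0.52 ± 0.12 (SE, edgeR adjusted p = 0.120), and it was called by DESeq2 (adjusted p = 0.0210). The difference was -0.91 ± 0.27 for Bcl3 (SE, edgeR adjusted p = 0.343), -0.64 ± 0.39 for Socs3 (SE, edgeR adjusted p = 0.742) and -0.50 ± 0.15 for Cntfr (SE, edgeR adjusted p = 0.337). Without Rag1-/- white matter library 3, the one with the highest Socs3 level of that group, Socs3, which was chosen for its high wild-type level, was called lower, at -1.25 ± 0.21 (SE, edgeR adjusted p = 0.0496). Il6st, at -0.17, and Lifr, at 0.04, had edgeR adjusted p-values of 0.762 and 0.984, and Osmr, with few UMIs, had one of 0.941.

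The share of cells in the cluster with the highest Socs3 level was lower in Rag1-/- libraries. These were the age-related oligodendrocytes (ARO), a cluster that the authors defined by Serpina3n and C4b. ARO cells made up 21.7% and 21.6% of oligodendrocytes in wild-type white matter and 13.8%, 6.99% and 15.8% in Rag1-/- white matter, against 1, 0 and 0 cells in the 3 gray matter libraries. Their Serpina3n level was 474 to 919 CPM over the 5 white matter libraries. In sums over a tissue, fewer ARO cells and less RNA per cell cannot be told apart, so the next comparisons were made within clusters.

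By cluster, Socs3 was highest in ARO in each of the 5 white matter libraries. It measured 58.0 and 95.5 CPM in wild-type and 64.8, 78.8 and 112 CPM in Rag1-/- ARO cells, a mean of 81.8 ± 22.2 CPM (SD, n = 5). The next cluster, Oligo2c, was at 20.4 ± 7.15 CPM (SD, n = 5), with a highest library of 24.5 CPM, so that the ranges did not touch. IRO, the interferon-responsive oligodendrocytes, were at 15.7 ± 12.7 CPM (SD, n = 5) and overlapped with Oligo2c. Oligo1a, Oligo1c, Oligo2b, Oligo1b and Oligo2a followed with means from 6.09 down to 1.64 CPM, and each overlapped with its neighbor in this order. ARO cells held 59.0% to 83.2% of all oligodendrocyte Socs3 UMIs of a white matter library but 6.84% to 22.5% of all its UMIs.

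Bcl3 was likewise highest in ARO in all 5 white matter libraries. It measured 55.8 and 79.5 CPM in wild-type and 46.5, 72.6 and 65.4 CPM in Rag1-/- ARO cells, a mean of 63.9 ± 13.1 CPM (SD, n = 5). IRO came next at 16.3 ± 10.2 CPM (SD, n = 5), below every ARO value, followed by Oligo2c at 9.80 ± 3.46 CPM (SD, n = 5) and Oligo1a at 8.80 ± 3.10 CPM (SD, n = 5), which overlapped. ARO cells held 56.1% to 73.0% of the Bcl3 UMIs of white matter oligodendrocytes.

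Stat3 formed a gradient rather than a step. ARO was highest in 4 of 5 libraries with 165 ± 26.3 CPM (SD, n = 5), Oligo2c followed with 136 ± 16.1 CPM (SD, n = 5) and IRO with 121 ± 46.0 CPM (SD, n = 5), and the ranges of all these overlapped. Oligo1b was lowest at 62.2 ± 8.10 CPM (SD, n = 5). Il6st was highest in ARO in 5 of 5 libraries, at 65.6 ± 8.05 CPM (SD, n = 5), but its range overlapped with Oligo1c at 55.8 ± 7.17 CPM (SD, n = 5), and the other clusters had means of 44.5 to 55.0 CPM. Lifr was flat, with means between 66.3 CPM in Oligo2a and 84.3 CPM in Oligo1c.

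Cntfr divided the clusters along another line. IRO, ARO and Oligo1a had 69.1 ± 20.1, 67.7 ± 11.9 and 62.6 ± 11.2 CPM (SD, n = 5 each) and overlapped. Oligo1c and Oligo1b followed with 43.7 and 35.6 CPM. Oligo2b and Oligo2c had 22.2 and 17.6 CPM, below every Oligo1b library for Oligo2b, and Oligo2a had 6.60 ± 1.66 CPM (SD, n = 5), below every Oligo2c library. Oligo2c was thus second for Socs3 and Stat3 and second to last for Cntfr. Osmr did not exceed 1.30 CPM on average in any cluster, and the highest mean rested on 1 library.

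**Figure D2:**
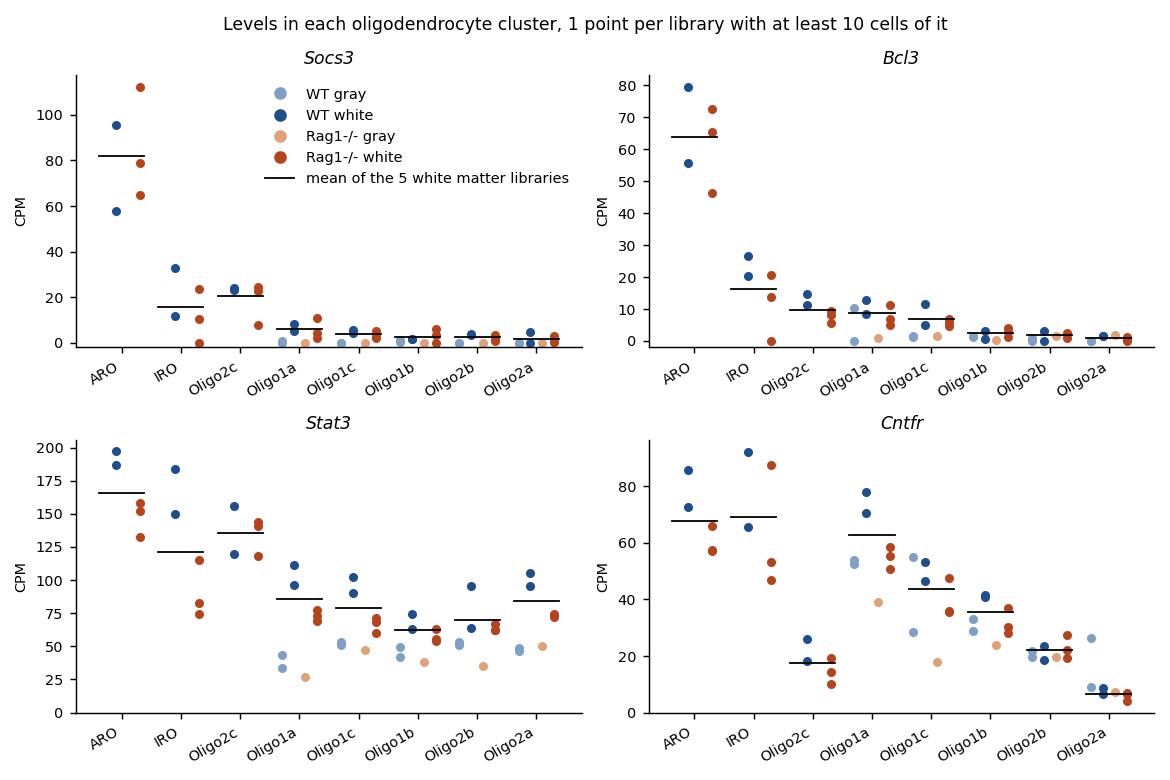
Socs3, Bcl3, Stat3 and Cntfr in the 8 oligodendrocyte clusters, in CPM of UMIs summed per library and cluster (y axis, linear), with 1 point per library that held at least 10 cells and a line at the mean of the 5 white matter libraries. Socs3 and Bcl3 stand apart in ARO, Stat3 is more evenly spread, and Cntfr is lowest in Oligo2a, at 6.60 CPM.

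Within the same cluster, Stat3 was still higher in white matter. ARO, IRO and Oligo2c held fewer than 10 cells in every gray matter library, which left 5 clusters for this comparison. In Oligo1a, Stat3 was at 34.6 ± 8.08 CPM (SD, n = 3) in gray and 85.4 ± 17.8 CPM (SD, n = 5) in white matter, and in Oligo2a at 48.3 ± 2.00 (SD, n = 3) and 84.2 ± 15.2 CPM (SD, n = 5). In all 5 shared clusters each white matter library exceeded each gray matter library. Among all genes with at least 10 UMIs in the cluster, this held for 3.59% in Oligo1a, 1.69% in Oligo1b, 4.79% in Oligo1c, 5.97% in Oligo2a and 3.40% in Oligo2b. Socs3 did so in Oligo1a, Oligo1c and Oligo2b, on at most 1 gray matter UMI per cluster, and Bcl3 in Oligo1c, at 1.48 ± 0.15 (SD, n = 3) against 6.82 ± 2.76 CPM (SD, n = 5). Il6st ran the other way in Oligo2b, at 57.4 ± 4.18 (SD, n = 3) against 45.4 ± 5.40 CPM (SD, n = 5), as did 3.55% of all genes there, and Lifr and Cntfr overlapped in all 5. These values are a description, since the clusters were drawn with the same cells and mix both genotypes.

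ARO cells, which have the highest Socs3 and Bcl3 levels and are all but absent from gray matter, were also left out, which must lower the white matter levels. Without them Socs3 measured 7.57 and 8.13 CPM in wild-type and 1.96, 4.03 and 7.69 CPM in Rag1-/- white matter, still above the 0 to 0.367 CPM of gray matter. Bcl3 measured 6.71 and 8.42 CPM in wild-type and 3.21, 4.18 and 5.45 CPM in Rag1-/- white matter, above 0.942 to 2.20 CPM in gray matter. Stat3 measured 94.99 and 111 CPM in wild-type and 76.4, 69.0 and 78.2 CPM in Rag1-/- white matter. The 7.36% of all genes given above is for sums with ARO cells. Without them no such share was counted, so the separation is not shown to be particular to these genes. In edgeR's quasi-likelihood test of Rag1-/- white against gray matter without ARO cells, Stat3 remained called at 0.96 ± 0.16 on the log2 scale (SE, adjusted p = 0.0458), and Bcl3 was at 2.16 ± 0.53 (SE, adjusted p = 0.162).

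Within ARO cells of white matter, none of the 6 genes tested, all but Osmr, was called between genotypes, while 0.812% of 10102 genes were called higher in Rag1-/- and 0.178% lower. The log2 difference of Rag1-/- from wild type was 0.16 ± 0.24 for Socs3 (SE, edgeR adjusted p = 0.986) and -0.15 ± 0.21 for Bcl3 (SE, edgeR adjusted p = 0.983). The sign of both depended on which library was left out, as given with the processing alternatives. For Stat3, Cntfr and Il6st all 3 Rag1-/- libraries lay below both wild-type libraries, as did 11.7% of all genes. Stat3 measured 187 and 197 CPM in wild-type and 133, 158 and 152 CPM in Rag1-/- ARO cells, and Cntfr 85.6 and 72.7 against 57.6, 65.8 and 57.0 CPM. Stat3 differed by -0.34 ± 0.13 (SE, edgeR adjusted p = 0.733) and Cntfr by -0.34 ± 0.16 (SE, edgeR adjusted p = 0.862). Il6st differed by -0.18 ± 0.17 and Lifr by 0.16 ± 0.17 (SE, edgeR adjusted p of 0.972 and 0.975).

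Detection of Socs3 in single ARO cells was limited by depth. The share of ARO cells with at least 1 Socs3 UMI was 31.8% and 40.3% in wild-type and 26.6%, 43.9% and 49.1% in Rag1-/- white matter, a mean of 38.3% ± 9.09 (SD, n = 5). The median depth was 8179 to 12621 UMIs per ARO cell. In Oligo2a, the cluster with the lowest Socs3 level, 0% to 3.87% of the cells of a white matter library had a UMI, at a median depth of 12612 to 18273 UMIs, and the share in ARO was above that in each library. When each cell was thinned to 2000 UMIs, the share in ARO was 12.4% ± 3.65 (SD, n = 5).

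ARO cells with a Socs3 UMI also had more Bcl3. Per library, Bcl3 measured 99.3 and 132 CPM in wild-type and 101, 113 and 91.1 CPM in Rag1-/- cells with a Socs3 UMI, against 33.7, 41.0, 26.3, 42.2 and 37.6 CPM in those without. The ratio was 3.02 ± 0.55 (SD, n = 5) and above 1 in 5 of 5 libraries. The ratio was 1.38 ± 0.18 for Stat3 and 1.24 ± 0.06 for Il6st (SD, n = 5 each), both above 1 in 5 of 5 libraries, while Lifr was at 0.802 ± 0.132 (above 1 in 0 of 5) and Cntfr at 0.917 ± 0.116 (above 1 in 1 of 5). Serpina3n, a gene that defines the cluster, had a ratio of 1.58 ± 0.28 (SD, n = 5), also above 1 in 5 of 5 libraries. The immediate early genes Junb and Fos had ratios of 6.64 ± 1.67 and 3.40 ± 1.57 (SD, n = 5 each), and a list of 13 immediate early genes without Junb, taken as a sum, had one of 1.57 ± 0.36 (SD, n = 5), from 1.04 to 1.99. The median depth was 8175 to 13126 UMIs in cells with and 8179 to 12694 UMIs in cells without a Socs3 UMI. This split uses the cells' own Socs3 counts and is a description without a test.

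**Figure D3:**
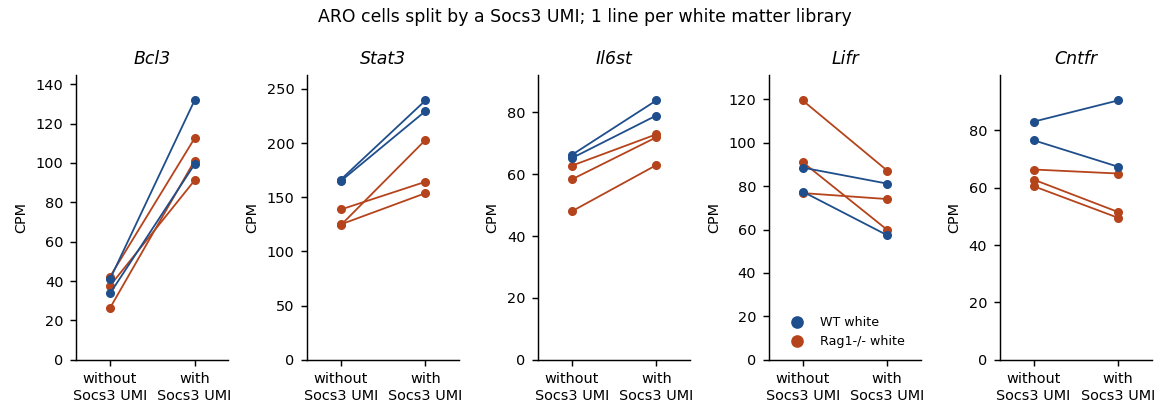
ARO cells of each white matter library split by the presence of a Socs3 UMI, with the level of Bcl3, Stat3, Il6st, Lifr and Cntfr in CPM (y axis, linear) and 1 line per library. Bcl3, Stat3 and Il6st are higher in the cells with a Socs3 UMI in all 5 libraries, and Lifr is lower in all 5.

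Immediate early genes, which respond within minutes and can rise during tissue dissociation, were summed as a check over the 13 genes of a list. In all oligodendrocytes the sum was 294 to 328 CPM in wild-type gray, 342 to 350 CPM in wild-type white, 318 CPM in Rag1-/- gray and 225 to 356 CPM in Rag1-/- white matter. In ARO cells it was 476 to 504 CPM in wild-type and 494 to 521 CPM in Rag1-/- white matter. The sum was thus higher in ARO cells than over all oligodendrocytes, together with Socs3 and Bcl3, and its part in their level was not tested. In Rag1-/- oligodendrocytes, 0 of the 13 genes tested were called between white and gray matter, where 0.291% of all genes were called higher and 0.145% lower, so a count of 0 does not set the list apart. Junb, an immediate early gene as well, was counted with the STAT3-induced genes and was called higher. Of the 13, 1, Nr4a1, was called lower in Rag1-/- than in wild-type white matter (-0.74 ± 0.11, SE, edgeR adjusted p = 0.0148), beside 0.207% of all genes.

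Apart from the 7 genes themselves, the 5 genes whose pattern over oligodendrocytes was most like Socs3 were Cebpd (r = 0.896), Sik3 (0.895), Serpina3n (0.860), Msrb1 (0.845) and Cela1 (0.844). The measure was Pearson's r of log2(CPM + 1) over 53 pools of a library and cluster with at least 20 cells, among 7900 genes with a mean of at least 10 CPM. For Bcl3 they were Plvap (0.911), Msrb1 (0.901), Flnc (0.881), Gadd45a (0.871) and Cebpd (0.849), and Msrb1 and Cebpd stood in both lists. Between the genes described here, Socs3 had r = 0.846 with Bcl3, 0.862 with Stat3, 0.406 with Cntfr, 0.302 with Il6st and -0.162 with Lifr. Pools of the same library share its depth and animals, and pools of the same cluster share the genes that defined it, so the 53 pools are not independent.

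The rest of the pathway was followed with lists of related genes. Of 22 genes known to be induced by STAT3, 19 could be tested in Rag1-/- oligodendrocytes, and 3 were called higher in white matter and 0 lower, where 0.291% of all genes were called higher. These were Serpina3n, a secreted protease inhibitor (8.37 CPM in gray against 135, 127 and 236 CPM in white matter, log2 fold change 4.33 ± 0.47, SE, edgeR adjusted p = 0.0155), the AP-1 gene Junb (1.57 against 16.8, 17.3 and 21.6 CPM, 3.57 ± 0.42, SE, edgeR adjusted p = 0.0188) and Gfap, the astrocyte intermediate filament (1.46 against 12.7, 10.6 and 11.6 CPM, 3.0 ± 0.39, SE, edgeR adjusted p = 0.0210). Summed astrocyte markers were at 14.0 CPM in the gray and 3.70 to 11.5 CPM in the white matter libraries of the same cells, and their part in the Gfap level was not tested. Serpina3n is a gene by which the authors defined ARO, and the Rag1-/- gray matter library held 0 ARO cells, so its call was favored in advance. The list was also chosen with earlier results of these data known, so the count of 3 gives no measure of STAT3 activity. The median log2 fold change of the 19 genes was -0.02, beside 0.02 for all genes tested. None of the 8 inhibitors, 5 other receptor chains and kinases, 3 ligands or 7 NF-kB and nuclear IkB genes that could be tested was called in either direction. In wild-type oligodendrocytes the 19 STAT3-induced genes had a median log2 fold change of 0.76 between white and gray matter. The median of all genes was -0.006 there, and 15 of the 19 were above 0. That contrast belongs to the readout by which the 7 genes were chosen and is given without a test.

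Between genotypes, 1 of these 19 STAT3-induced genes was called in white matter oligodendrocytes, and it was lower in Rag1-/-, where 0.704% of all genes were called higher and 0.207% lower. Cd44, a hyaluronan receptor, measured 7.38 and 6.98 CPM in wild-type and 0.435, 0.656 and 0.471 CPM in Rag1-/- white matter (-3.73 ± 0.33, SE, edgeR adjusted p = 0.000349). Within ARO cells it was the 1 gene called of 15 tested, beside 0.812% of all genes called higher and 0.178% lower, and it measured 20.8 and 21.4 CPM in wild-type and 2.78, 5.48 and 1.87 CPM in Rag1-/- white matter (-2.88 ± 0.34, SE, edgeR adjusted p = 0.000329). The genotypes did not overlap in either comparison, which held for 12.7% and 11.7% of all genes in this direction. Summed T cell markers also parted the genotypes in the same oligodendrocytes. They were at 6.87 and 1.48 CPM in wild-type white matter libraries 1 and 2 and at 0.0248 to 0.141 CPM in Rag1-/- white matter. In ARO cells they were at 5.21 and 1.54 CPM in the wild-type libraries and 0 to 0.278 CPM in the Rag1-/- libraries. The part of T cell RNA in the Cd44 difference was not tested. No other gene of the list was called, and its median log2 difference was -0.25 in white matter oligodendrocytes, beside 0.01 for all genes.

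In Rag1-/- microglia the picture among the 7 genes was a different one. The fit held only the 4 Rag1-/- libraries, so the spread came from the 3 white matter libraries alone and the lone gray matter library was assumed to vary like them. Bcl3 alone was called between tissues, as 1 of 6 genes tested, while 2.58% of 12662 genes were called higher and 0.419% lower. The balance depended on the scaling, with 327 genes called higher and 53 lower with TMM and 211 higher and 228 lower without it. It measured 1.23 CPM in gray and 7.13, 5.49 and 6.15 CPM in white matter, all above gray matter as were 32.3% of all genes, with a log2 fold change of 2.59 ± 0.42 (SE, edgeR adjusted p = 0.0195), and the call was lost without Rag1-/- white matter library 2 (edgeR adjusted p = 0.0512). Socs3 was present in both tissues, at 9.50 CPM in gray and 11.0, 6.51 and 11.9 CPM in white matter (0.32 ± 0.35, SE, edgeR adjusted p = 0.715). Gray matter lay within the white matter range. Stat3 measured 75.9 against 61.6, 73.8 and 69.1 CPM and Il6st 149 against 120, 145 and 161 CPM, with edgeR adjusted p-values of 0.842 and 0.717. The log2 fold changes of Stat3 and Il6st were 0.08 and 0.17 with TMM scaling and -0.16 and -0.07 without it, when the median of all genes was at -0.23 rather than 0.02. Osmr was found in none of the 4 libraries and Cntfr at 0.223 to 2.03 CPM.

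Lifr and Il6st differed between the microglia clusters. Lifr measured 68.8 CPM in gray and 35.5, 47.4 and 41.0 CPM in white matter microglia, all below gray matter as were 29.6% of all genes (-0.51 ± 0.17, SE, edgeR adjusted p = 0.218), and without Rag1-/- white matter library 1 it was called (-0.43 ± 0.13, SE, edgeR adjusted p = 0.0148). In that fit gray matter is batch 1 and white matter batch 2, so tissue and batch cannot be told apart. Within Homeostatic1 microglia it was at 69.7 CPM in gray and 73.6, 78.4 and 63.0 CPM in white matter. White matter Homeostatic2 microglia had 36.8 ± 3.89 CPM (SD, n = 3) and white matter-associated microglia (WAM) 17.0 ± 1.80 CPM (SD, n = 3). Homeostatic1 made up 1634 of 1732 microglia in gray matter, but 785 of 3617, 248 of 707 and 577 of 1365 in white matter. Il6st followed the same order, with 194 ± 30.1 CPM in Homeostatic1, 142 ± 13.3 CPM in Homeostatic2 and 87.0 ± 5.57 CPM in WAM of white matter (SD, n = 3 each).

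Bcl3 had the reverse order in white matter, with 3.34 ± 0.28 CPM in Homeostatic1, 5.78 ± 1.24 CPM in Homeostatic2 and 11.3 ± 2.30 CPM in WAM (SD, n = 3 each), and neighbors did not overlap. In Homeostatic1 alone it was at 1.20 CPM in gray, from 12 UMIs, and at 3.03, 3.41 and 3.57 CPM in white matter, from 12, 6 and 11 UMIs. WAM of gray matter were 27 cells without a Bcl3 UMI. Socs3 did not separate these clusters, at 11.7 ± 3.81, 9.61 ± 4.01 and 8.61 ± 3.02 CPM (SD, n = 3 each). The microglia clusters were drawn with the same cells, so the orders of Bcl3, Lifr and Il6st are a description without a test. The share of all genes that part these clusters was not counted. Wild-type microglia were not analysed here.

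The pathway lists in microglia are read beside the 2.58% of all genes called higher and the 0.419% called lower. Of 19 STAT3-induced genes, 2 were called higher in white matter, the intermediate filament gene Vim (2.94 against 60.4, 58.8 and 54.2 CPM, 4.53 ± 0.21, SE, edgeR adjusted p = 0.000133) and Cd44 (4.84 ± 0.62, SE, edgeR adjusted p = 0.0098). Of the 8 NF-kB and nuclear IkB genes tested, the nuclear IkB gene Nfkbiz was called higher (12.2 against 24.5, 23.0 and 25.3 CPM, 1.24 ± 0.19, SE, edgeR adjusted p = 0.0174). Of 12 immediate early genes, Egr1 (4.63 ± 0.43, SE, edgeR adjusted p = 0.0027) and Atf3 (2.58 ± 0.36, SE, edgeR adjusted p = 0.0120) were called higher, while their list summed to 375 CPM in gray and 335 to 419 CPM in white matter. Of the 5 ligands tested, Il6 was called lower in white matter (27.8 against 8.37, 10.2 and 11.0 CPM, -1.27 ± 0.22, SE, edgeR adjusted p = 0.0276). None of the 10 inhibitors and 6 other receptor chains and kinases was called. Summed oligodendrocyte markers in the microglia were 136 CPM in gray and 142 to 525 CPM in white matter. Other markers were lower but differed by a larger factor, with endothelial markers at 2.47 CPM in gray and 19.4 to 26.4 CPM in white matter (Cldn5 and Ly6c1 at 0 in library 1), those of oligodendrocyte precursors at 0.285 and 5.57 to 9.96 CPM (Gpr17 at 0 in all libraries) and those of neuroblasts at 0.475 and 1.51 to 6.91 CPM. Macrophage markers were at 15.9 and 16.7 to 27.8 CPM, and T cell markers at 0 and 0.203 to 0.376 CPM. The part of these cell types in the differences was not tested.

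Astrocytes carried Osmr, which was at or close to 0 in oligodendrocytes and microglia. It measured 0 and 1.88 CPM in wild-type gray, 17.6 CPM in the 1 wild-type white matter library with at least 10 astrocytes, 4.15 CPM in Rag1-/- gray and 62.5, 11.6 and 9.75 CPM in Rag1-/- white matter, on 3 to 33 UMIs in the libraries where it was found. Each white matter library lay above each gray matter library, as in 7.25% of all genes. Socs3 measured 2.43 and 4.39 CPM in wild-type gray, 17.6 CPM in wild-type white, 1.89 CPM in Rag1-/- gray and 17.1, 12.5 and 6.70 CPM in Rag1-/- white matter, again without overlap. Bcl3 measured 0 and 1.25, 17.6, 0.377, and 11.4, 5.37 and 4.87 CPM in the same order. For Socs3 and Bcl3 the parting of the tissues depended on the definition of astrocytes, as given below. Cntfr was lower in white matter within each genotype, at 309 and 235 CPM in wild-type gray, 72.7 CPM in wild-type white, 302 CPM in Rag1-/- gray and 140, 236 and 175 CPM in Rag1-/- white matter, but across genotypes the tissues overlapped, since Rag1-/- white matter 2 exceeded wild-type gray matter 2.

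None of these differences was called. Between Rag1-/- white and gray matter astrocytes, edgeR called 0 of 11745 genes, while 1047 had an unadjusted p under 0.05 and DESeq2 called 15. Socs3, Bcl3 and Osmr passed the filter on low counts, which lay at 8.96 CPM here, only through white matter, so their parted tissues are in part a property of that filter and no fold change is given. The log2 fold change was -0.80 ± 0.36 for Cntfr (SE, edgeR adjusted p = 0.560). In edgeR, Stat3, at 0.61 ± 0.30, Il6st, at 0.73 ± 0.37, and Lifr, at -0.28 ± 0.33 (SE), had adjusted p-values of 0.602, 0.607 and 0.861. All 3 white matter libraries were above gray matter in 24.2% of all genes and below it in 27.6%. Between Rag1-/- and wild-type white matter astrocytes 0 of the 7 genes were called, beside 0.0681% of all genes in each direction, and Cntfr had the smallest p, at 1.45 ± 0.44 (SE, edgeR adjusted p = 0.387). Stat3 was at -0.65 ± 0.30 (SE, edgeR adjusted p = 0.526), and the edgeR adjusted p was 0.696 for Lifr, 0.730 for Bcl3, 0.790 for Il6st, 0.887 for Socs3 and 0.913 for Osmr.

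The astrocyte sums also held RNA of other cells. Their own markers summed to 4100 and 2618 CPM in wild-type gray and 1434 CPM in wild-type white matter. In Rag1-/- mice these were at 3800 CPM in gray and 3457, 2980 and 2603 CPM in white matter. Within each genotype they were thus lower in white matter, as was Cntfr, and their part in the Cntfr difference was not tested. Oligodendrocyte markers summed to 693 CPM in Rag1-/- gray, 1120.2 to 3546 CPM in Rag1-/- white, 1221 to 1864 CPM in wild-type gray and 5805 CPM in wild-type white matter. Microglia markers summed to 553 to 8503 CPM over all these libraries. Oligodendrocyte or microglia markers, from longer lists, summed to more than the astrocytes' own in 4 libraries. These were wild-type gray matter library 2, the wild-type white matter library and Rag1-/- white matter libraries 1 and 3. Summed neuroblast markers parted the tissues as Socs3, Bcl3 and Osmr did, at 33.6 to 49.5 CPM in gray and 100 to 291 CPM in white matter. The highest sum, in wild-type white matter, held no UMI of Dcx or Dlx6os1. Dlx6os1 was also at 0 in Rag1-/- white matter library 1 and in all gray matter libraries. T cell markers were at 52.8 CPM in wild-type white, 0 to 1.90 CPM in Rag1-/- white and 0.377 to 4.87 CPM in gray matter, and endothelial, macrophage and oligodendrocyte precursor markers overlapped between the tissues. The part of these cell types was not tested. Without the cells that also stood in the authors' oligodendrocyte or microglia tables, Socs3 in Rag1-/- white matter library 2 was at 3.80 in place of 12.5 CPM and Bcl3 at 0 in place of 5.37 CPM, while Osmr was at 12.3 in place of 11.6 CPM. Wild-type gray matter library 2 held no such cells and had 4.39 CPM of Socs3. By this definition Socs3 and Bcl3 thus no longer parted white from gray matter across the genotypes. Oligodendrocytes contained 0.0469 to 0.671 CPM of Osmr in white matter. The part of oligodendrocyte RNA in the Socs3 and Bcl3 levels of astrocytes was not tested further.

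**Figure D4:**
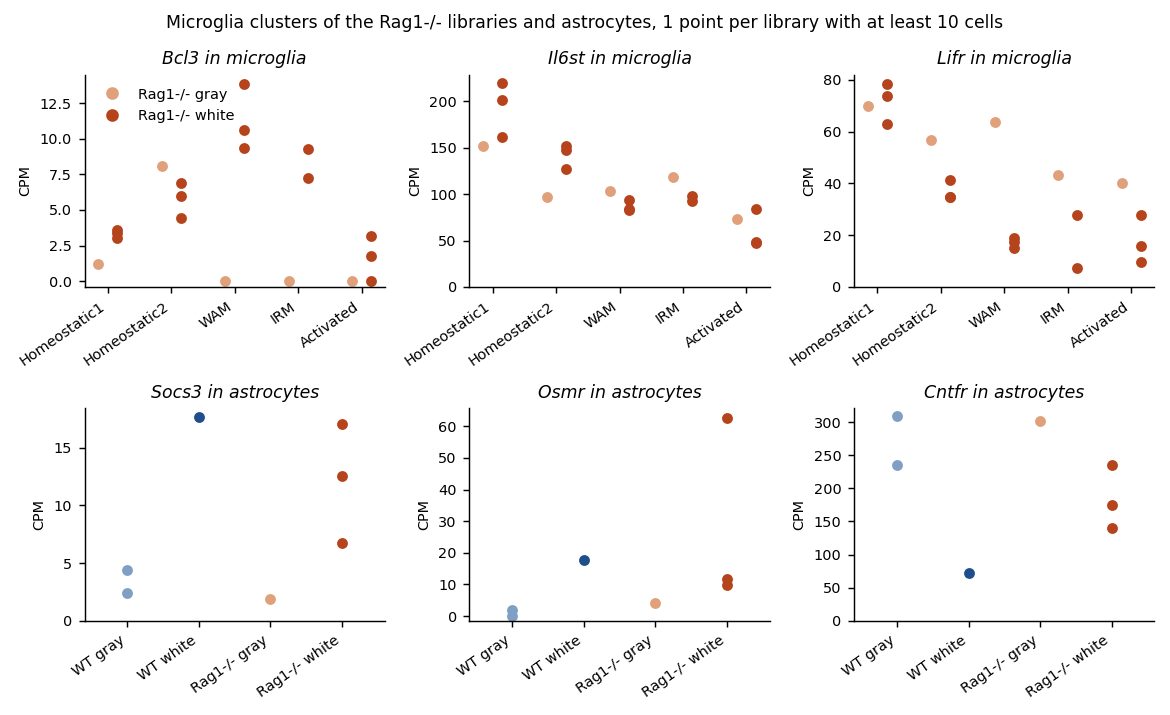
Top, Bcl3, Il6st and Lifr in microglia clusters of the 4 Rag1-/- libraries. Bottom, Socs3, Osmr and Cntfr in astrocytes of all libraries with at least 10 such cells. The y axes are CPM of UMIs summed per library (linear) and each point is 1 library. WAM of white matter have the highest Bcl3 and the lowest Lifr of the 3 largest clusters, and Cntfr in astrocytes is at 72.7 to 236 CPM in white and 235 to 309 CPM in gray matter.

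**Figure D5:**
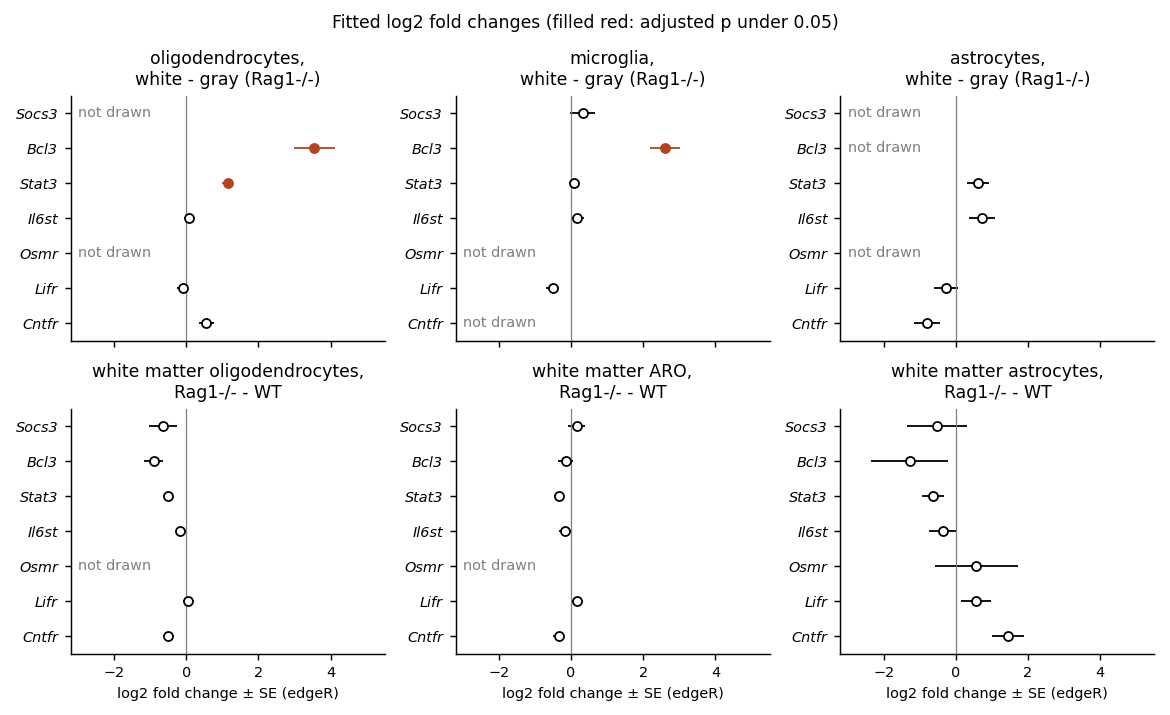
Fitted log2 fold changes (x axis) with standard errors of the 7 genes in 6 comparisons from edgeR, where filled red points have an adjusted p under 0.05 and open points do not. Genes that could not be tested, that were at or near 0 UMIs in most libraries, or that passed the filter on low counts only through the higher group, were not drawn, which includes Socs3 in Rag1-/- oligodendrocytes and Socs3, Bcl3 and Osmr in Rag1-/- astrocytes. Stat3 and Bcl3 in Rag1-/- oligodendrocytes and Bcl3 in Rag1-/- microglia are the red points.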

How the data were processed

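Per the labels and the study's methods, single-cell RNA-sequencing libraries of 24-month-old mice were made on the 10× platform, and the authors deposited whole-number UMI counts per gene and cell, without normalization, after filtering cells and genes. The submitters' processing notes name Cell Ranger 4 and mm10, and the study's methods give that version for the first Rag1-/- batch, an earlier one for the wild type and a later one for the second Rag1-/- batch. Oligodendrocyte and microglia clusters are those of the authors. The microglia annotation also listed 8171 cells from 4 libraries that belong to another series, and no step used them. The microglia count table was not used either, since counts of Rag1-/- microglia were read from the tables of all cells.

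Counts were summed per library over each cell class and divided by the sum of that class over genes counted in both genotypes to give CPM. For microglia the sum ran over all genes counted in the Rag1-/- libraries, so their CPM have a slightly different base. Of the oligodendrocytes, 124 and 98 of Rag1-/- white matter libraries 2 and 3 were not among the cells of the all-cell tables. Libraries are the replicates, and pools under 10 cells were left out. Sums entered edgeR 4.0.16 (R 4.3.3) after filterByExpr and TMM scaling, and contrasts were tested two-sided with its quasi-likelihood F test, over all 8 libraries in 4 groups of tissue and genotype for oligodendrocytes, and genes were called at a Benjamini-Hochberg adjusted p under 0.05 over all genes tested. P-values measure the spread between libraries of few mice. DESeq2 1.42.0 was an alternative, with others on the filter, scaling, replicates, mouse pool, cell definitions and depth. The fits were tested on simulated data. Deviations of gray and white matter libraries of the same wild-type pool from their group means correlated across 13067 genes (r = 0.409), and the study's mouse table gives the same animals for both, so the numbers pair these samples within a genotype. Doublets were not called. A further gene of the oligodendrocyte marker list is not reported here and did not enter its sums. Promoter sequences are from RefSeq (GRCm38.p6), with all 7 genes matched.

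The 7 genes are named in each comparison in which they could be tested. From the pathway lists, called genes are named, at most 5 per direction by size of change, and for likeness the 5 genes with the highest r. Genes and lists were chosen with earlier results of these data known. Python 3.11.15, numpy 2.4.6, scipy 1.17.1 and matplotlib 3.10.9 were used.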

Additional observations from a re-analysis of the deposited data

Results flagged for a closer look

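Cntfr differed between tissues in opposite directions in different cell types of the same Rag1-/- libraries. In oligodendrocytes the 3 white matter libraries exceeded gray matter by 7.81, 14.7 and 9.98 TMM-scaled CPM, a mean of 10.8, while in astrocytes they differed from gray matter by -190, -85.4 and -146, a mean of -140. Every white matter library thus lay above gray matter in one cell type and below it in the other, set against the same lone gray matter library. In oligodendrocytes all white matter libraries lay above gray matter for 32.8% of all genes, and in astrocytes below it for 27.6%. The share of genes with both was not counted, so Cntfr is not shown to stand out. The difference between the cell types was not tested. Neither of the tissue contrasts was called on its own, with edgeR adjusted p-values of 0.409 in oligodendrocytes and 0.560 in astrocytes. The sum of oligodendrocyte markers in these astrocytes was 693 CPM in gray and 1120.2 to 3546 CPM in white matter. Their own astrocyte markers summed to 3800 CPM in gray and 2603 to 3457 CPM in white matter. The part of either in the Cntfr difference was not tested.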

How the results depend on the processing

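The numbers of called genes depended on the processing more than the values of the 7 genes did. For Rag1-/- oligodendrocytes in white against gray matter, 57 genes were called, 204 with DESeq2, 140 without the filter on low counts, 688 with the replicate block (mouse pool) and 16 to 264 when 1 library was left out (16 without Rag1-/- white matter 2, 264 without Rag1-/- white matter 1). For white matter oligodendrocytes between genotypes, 119 genes were called, 195 with DESeq2 and 80 to 137 when 1 library was left out. For ARO cells, 100 were called, 200 without the filter and 86 to 153 when 1 library was left out, with 153 without Rag1-/- white matter 1. For microglia, 380 were called, 584 with DESeq2, 669 without the filter, and 177 to 2803 when 1 library was left out (177 without Rag1-/- white matter 2, 2803 without Rag1-/- white matter 1). For astrocytes between genotypes, 16 were called, 54 with DESeq2, 103 without the filter and 4 to 106 when 1 library was left out (106 without Rag1-/- white matter 1, 4 without Rag1-/- white matter 3, 5 without either wild-type gray matter library, 9 without Rag1-/- white matter 2). For Rag1-/- astrocytes between tissues, 0 were called, 15 with DESeq2, 54 without the filter and 0 to 111 when 1 library was left out (111 without Rag1-/- white matter 1). The share of ARO cells with a Socs3 UMI moved from 38.3% to 12.4% with every cell thinned to 2000 UMIs, as fewer UMIs per cell must give. Without Rag1-/- white matter 1, gray matter is batch 1 and white matter batch 2, so the 264, 2803 and 111 genes called then cannot be told apart from a batch difference. The cause of the other changes was not tested. Without TMM, 211 genes were called higher and 228 lower in microglia, in place of 327 and 53. The mean Socs3 level in ARO was 74.3 to 87.8 CPM when 1 white matter library was left out, an alternative chosen after seeing the data.

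Of the results for single genes, 335 kept direction and side of the threshold, and 13 lost and 3 gained the call. The lost calls all fell on Socs3, Bcl3 and Stat3 in Rag1-/- oligodendrocytes and Bcl3 in microglia, the only ones called in the main fits. The 335 thus consist mostly of results that were called in neither fit. A further 13 changed sign, none of which was called. In log2 units the changed values were, for Il6st in Rag1-/- oligodendrocytes, -0.071 with the replicate block, -0.0089 without ARO cells and -0.0030 to 0.14 when 1 library was left out. For Lifr between genotypes they were -0.0094 without TMM and -0.12 to 0.23 when 1 library was left out (-0.02 without Rag1-/- white matter 2). Within ARO cells, Socs3 was at -0.13 without Rag1-/- white matter 3, -0.09 without wild-type white matter 1 and 0.62 without wild-type white matter 2, and Bcl3 at -0.34 without wild-type white matter 1 and 0.16 without wild-type white matter 2. In microglia without TMM, Stat3 was at -0.16 and Il6st at -0.072. Osmr in white matter astrocytes was at -0.63 without Rag1-/- white matter 1, 1.02 without Rag1-/- white matter 3 and -0.086 with at least 5 marker UMIs per astrocyte. With the replicate block, where pool 1 alone gives the Rag1-/- difference, no call among the 7 genes changed in Rag1-/- oligodendrocytes. It was not run for microglia and astrocytes, where it left no residual degrees of freedom. The lone Rag1-/- gray matter library and the lone wild-type white matter astrocyte library could not be left out of their own comparisons. With 4554278 UMIs in the smallest library and 3 to 33 Osmr UMIs per astrocyte sum, levels of a few CPM carry wide counting error.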

Other observations

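Of the cytokines that act on these receptors, the 9 counted in both genotypes, which leaves out Cntf, summed to more CPM in Rag1-/- microglia than in oligodendrocytes. Among the ligands, Clcf1, which signals through the ciliary neurotrophic factor receptor, measured 21.7 CPM in gray and 19.1 ± 1.43 CPM (SD, n = 3) in white matter microglia of Rag1-/- mice, and 18.1 ± 6.93 CPM (SD, n = 2) in cells with T cell markers of wild-type white matter, from 44 UMIs in 374 cells. The 88 such cells of Rag1-/- white matter, of which 19 had a Cd3e UMI, had 33.2 ± 3.87 CPM (SD, n = 3) from 18 UMIs. Ebi3, a subunit of interleukin-27, was at 41.3 CPM in gray and 34.1 ± 2.70 CPM (SD, n = 3) in white matter microglia, and at 30.9 ± 9.79 CPM (SD, n = 5) in cells with macrophage markers, from 55 UMIs in 217 cells. Its partner Il27 was at 5.60 CPM in gray and 3.96 ± 0.50 CPM (SD, n = 3) in white matter microglia. Osm, which encodes oncostatin M, was at 9.78 CPM in gray and 7.61 ± 1.30 CPM (SD, n = 3) in white matter microglia, where WAM had 12.5 ± 2.17 CPM (SD, n = 3).

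Oligodendrocytes themselves contained Il11, at 2.83 CPM in Rag1-/- gray and 4.66 ± 0.77 CPM (SD, n = 5) in white matter of both genotypes. Ctf1 was at 3.03 CPM in Rag1-/- gray and 1.54 ± 0.40 CPM (SD, n = 5) in white matter of both genotypes. Without wild-type gray matter these values do not compare the tissues. The ligands as a sum were at 8.48 to 11.7 CPM in wild-type gray and 6.87 to 7.03 CPM in wild-type white matter oligodendrocytes. In Rag1-/- mice the sum was 6.38 CPM in gray and 6.82 to 8.15 CPM in white matter. Lif did not exceed a mean of 2.40 CPM in any of the cell types examined in white matter, where that value came from 1 UMI in cells with T cell markers. The 9 ligands counted in both genotypes, all of the list but Cntf, summed to 106 CPM in gray and 72.2 to 78.9 CPM in white matter microglia. In ARO cells, whose CPM are taken over fewer genes, they summed to 5.21 to 7.54 CPM. These are levels of transcripts, without a test, and give no measure of secreted protein.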
